A study of Mus musculus with 55 samples.

Results

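Lung RNA was compared between mice that ate chow with 10 ppb As added as sodium arsenite for 5 weeks and mice whose chow of the same kind had none added. Both groups were male C57BL/6 mice on the LRD-5001 diet, 6 weeks of age, acclimated to that diet for 2 weeks, with no injection and no As added to their water. The members were chosen by these labels alone: 5 As-exposed mice (replicates B, C, D, E and F) and 4 LRD control mice (replicates A, C, E and F), which are 9 of the 55 mice of the series. Each lung was measured on 1 Affymetrix whole-genome mouse array. Values are log2 signals as deposited, differences are As-exposed minus control on the log2 scale, and every ± is an SD over mice. Food for the exposed mice was repelleted after the arsenite was mixed in. Whether control food was repelleted as well is not given in the labels, so repelleting and As cannot be told apart here. The same food exposure was also given to 5 mice on the AIN-76A diet, with 5 AIN-76A control mice of their own. Other mice on LRD-5001 chow drank 10 ppb As (5 mice) or 100 ppb As (3 mice) and share the 4 LRD control mice with the food group.

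Arsenite is the trivalent form of inorganic As. It enters cells through glycerol-conducting aquaporins, binds thiol groups, and is methylated by As3mt before export, with Gsto1 among the enzymes that reduce its metabolites. Higher doses than these are known to raise heat shock proteins, metallothioneins and the antioxidant genes driven by Nrf2, and the lung is a target tissue of chronic exposure by mouth. Whole lung RNA mixes the cells of the alveoli, airways, vessels and blood, so fewer cells of a type and less RNA per cell cannot be told apart in any result that follows.

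The arrays were lung by their markers. Surfactant protein D (Sftpd), made by alveolar type II cells, averaged 13.22 ± 0.16 (SD, n = 5) in exposed and 12.99 ± 0.21 (n = 4) in control mice, and the type I cell gene Ager averaged 13.98 ± 0.12 and 13.85 ± 0.09. Several arrays also had high levels of marker genes of other tissues, some of which the lung holds as well (heart muscle cells line the pulmonary veins of mice). Exposed replicate B stood apart on 13 skeletal muscle genes, whose mean was 10.36 against 3.82 to 4.64 in the other 4 exposed mice and 3.97 to 4.23 in controls, with the fast troponin gene Tnnc2 at 12.3. Control replicate A stood apart on 7 liver genes, at a mean of 11.28 against 4.56 to 6.93 in the other controls and 5.04 to 7.04 in exposed mice, and on 11 heart muscle genes, at 11.13 against 8.06 to 8.77 and 7.58 to 9.39. Control replicate C was the only one of the 9 lungs with the brown fat gene Ucp1 above 6, at 8.26. Exposed replicate C had the lowest mean of 12 airway secretory genes, 8.85 against 9.70 to 10.38 in the other exposed mice and 10.10 to 10.86 in controls. These arrays were kept in the comparison. For the lists described in most depth, values without control A and exposed B are given beside the result.

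**Figure D1:**
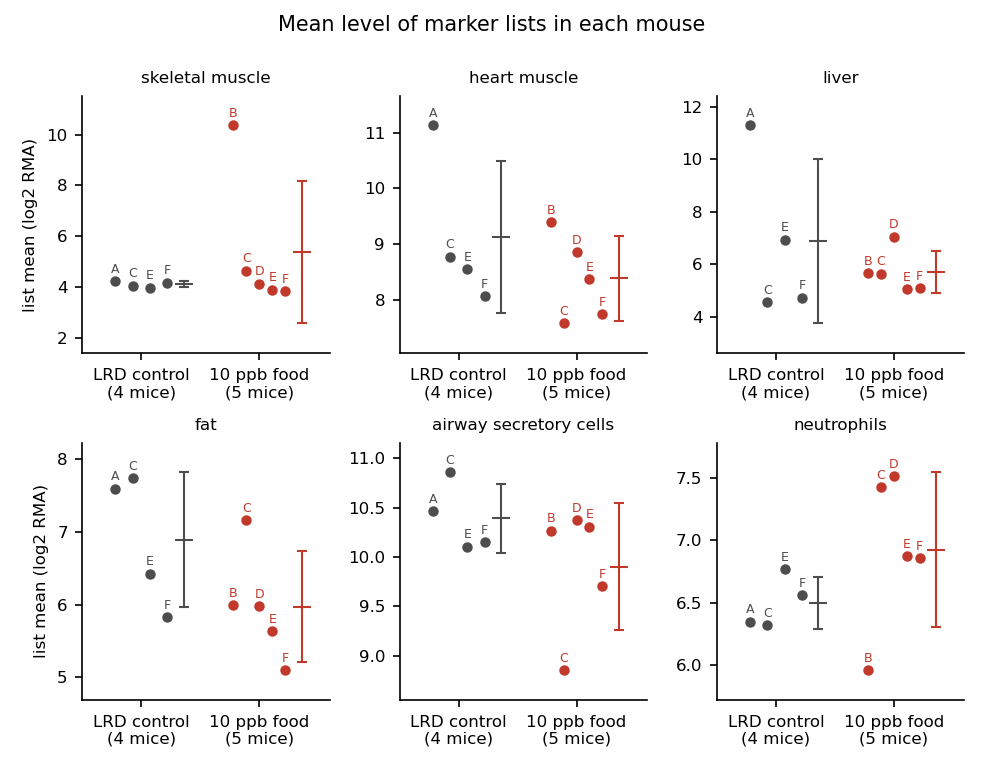
Mean log2 signal of marker gene lists (one panel per list, y axis in log2 units) in each of the 5 As-exposed and 4 control LRD mice; letters name the replicates and bars give the mean ± SD. Exposed mouse B sits at 10.36 on skeletal muscle genes and control mouse A at 11.28 on liver genes, far from the mice around them.

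No probe set passed the test. With limma, 0 of 45037 probe sets (0.0%) had a Benjamini-Hochberg adjusted p under 0.05, and the lowest adjusted p was 1. At an unadjusted p under 0.05 there were 1007 probe sets (2.24%), of which 603 (1.34%) were higher and 404 (0.897%) lower in exposed mice. Counting each of 18193 genes once, by its brightest probe set, 293 (1.61%) were higher and 146 (0.803%) lower at that threshold. Mice of the groups did not overlap for 103 genes that were higher (0.566%) and 42 that were lower (0.231%). All counts of list members below are read against these shares, and against 9868 genes of higher and 8318 of lower mean, with a median difference of 0.01. The rank product, the method of the study, which orders genes by their place in each of the 20 exposed-control differences, listed 28 probe sets as higher and 29 as lower with an estimated false positive share below 0.05. A place in that list can go against the mean difference: 1 of the 28, a probe set with no single gene symbol, was listed as higher with a mean difference of -0.82. The 20 differences share mice, and the random orderings behind the estimate keep that sharing. The orderings shuffle values across probe sets within each array, so every probe set is judged by a common spread. Probe sets with a wide spread between mice are therefore listed more readily. Array batches, taken from the names of the raw array files, put exposed D and control F in batch 1, exposed C and control A in batch 2, exposed B and controls C and E in batch 4, and exposed E and F, with no control, in batch 3. With batch as a block, exposed E and F no longer bear on the difference, and 3.08% of genes were higher and 1.4% lower at an unadjusted p under 0.05 (3.24% and 1.54% over 16 LRD mice, water groups included). So the genes below are described by their values in each mouse and by the interval of their difference, and none is called changed by limma.

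Among brighter genes with a log2 difference of at least 0.5, the mitochondrial arginase Arg2 had the smallest limma p. Its level was 6.58, 7.25, 7.13, 6.52 and 6.70 in exposed replicates B to F and 6.12, 6.15, 6.07 and 5.50 in control replicates A, C, E and F. Every exposed mouse was above every control mouse, and control F was the lowest of all. Arg2 was higher by 0.88 (95% interval 0.47 to 1.29; two-sided exact permutation p = 0.0159, the smallest that 5 against 4 mice allow), and its second probe set was higher by 0.65. On its leading probe set the membrane protein gene Dgcr2 also did not overlap between groups, at 6.88 ± 0.14 against 6.37 ± 0.20, a difference of 0.51 (0.25 to 0.76). The brightest Dgcr2 probe set differed by 0.01 (-0.23 to 0.24) and another by 0.10, and the groups overlapped on both. The cell cycle inhibitor Cdkn1a, a target of p53 and of other stress signals, read 8.64 in exposed replicate B and 9.33 to 9.90 in the other exposed mice, against 8.43 to 8.84 in controls, a difference of 0.82 (0.34 to 1.30). Its other probe set gave 0.66. Spon2, which encodes a secreted matrix protein, showed the same order: exposed replicate B read 6.11, within the control range of 6.07 to 6.41, and the other exposed mice read 6.96 to 7.45. The remaining genes of this kind were Nfkbiz, Pdlim7 and Leo1. Nfkbiz, an inhibitor-family partner of NF-kappa-B that is induced by IL-1 and TLR signals, was higher by 0.90. Its other probe sets differed by 0.42 and -0.14. The cytoskeletal adaptor Pdlim7 was higher by 0.52 on a probe set where exposed B was highest, at 7.08. The brightest Pdlim7 probe set differed by 0.18 and a dim one by 0.12. Leo1, a subunit of the Paf1 transcription complex, was higher by 0.59.

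On the lower side the leading genes were led by clock output factors, described below, and by single genes of several kinds. The tetraspanin Tspan4 read 9.12 to 9.35 in exposed replicates C to F and 9.84 to 10.08 in controls, but 10.09 in exposed replicate B. The nuclear noncoding RNA Malat1 was lower by 0.71 (interval -1.28 to -0.14), and its 7 probe sets were all lower in mean, by 0.05 to 0.87. Bank1, a scaffold of B cell receptor signalling, was lower by 0.58, the trefoil peptide Tff2 of the mucous surface by 0.73, the matrix proteoglycan Omd by 0.51, and the triglyceride synthesis enzyme Dgat2 by 0.58. The Dgat2 interval was -1.16 to 0.01, and its second probe set was lower by 0.47. Controls A and C read 8.58 and 8.20 for Dgat2. Controls E and F, at 7.55 and 7.27, lay within the exposed range of 6.90 to 7.70. Apoc1, an apolipoprotein, did not overlap between groups, at 7.81 ± 0.12 against 8.66 ± 0.99, but its control mean leaned on replicate A at 10.14, the mouse with liver genes.

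Immediate early genes had the largest median difference of the 27 pathway lists. These genes encode transcription factors and short-lived regulators that cells switch on within minutes of a stimulus, before any new protein is made. Of 25 members, 23 were higher and 2 lower in mean, with a median difference of 0.36, against a median of 0.01 over all genes. At an unadjusted limma p under 0.05 there were 7 members, all higher, against 1.61% of all genes: Junb, Fosb, Egr1, Ier2, Nr4a1, Maff and Klf2. The mean of the list was 9.10, 9.34, 9.04, 8.56 and 8.89 in exposed replicates B to F, and 9.04, 8.48, 8.58 and 8.19 in control replicates A, C, E and F. The groups thus overlapped, since control A was at the level of the higher exposed mice and exposed E at that of control E. The exposed mouse had the higher list mean within each of the 3 batches that hold both groups, by 0.85 in batch 1, 0.30 in batch 2 and 0.56 in batch 4. Without control A and exposed B the median difference was 0.51, and without control F and exposed D, the arrays of narrowest spread, 0.18. The number of members at p 0.05 went from 7 to 4 without exposed D or control C, and to 11 without exposed E or control A. With array batch as a block it was 16 of 25 (12 over 16 LRD mice), against the 3.08% (3.24%) of all genes given above.

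Junb, an AP-1 subunit, was the member whose groups did not overlap. It read 8.26, 8.83, 8.64, 7.95 and 8.30 in exposed replicates B to F against 7.94, 7.76, 7.27 and 7.37 in the controls, a difference of 0.81 (interval 0.39 to 1.23; exact permutation p = 0.0159). The lowest exposed mouse, E, and the highest control, A, were nearly level. Fosb, another AP-1 subunit, read 7.77 in exposed B, 5.03 to 5.83 in the other exposed mice and 3.83 to 5.09 in controls, so its difference of 1.36 (0.28 to 2.44) rested in part on the mouse with muscle genes. The orphan nuclear receptor Nr4a1 was 10.96 ± 0.40 in exposed and 10.19 ± 0.41 in control mice, a difference of 0.77, with control A at 10.79 inside the exposed range of 10.46 to 11.30. Egr1, a zinc finger factor, was higher by 0.75 and Ier2 by 0.64. Of those that did not reach p 0.05, Fos was higher by 0.58 (interval -0.11 to 1.27) and the stress factor Atf3 by 0.59 (-0.31 to 1.49). Members described beyond the leading genes were Maff, higher by 0.47, and the vascular factor Klf2, by 0.31.

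**Figure D2:**
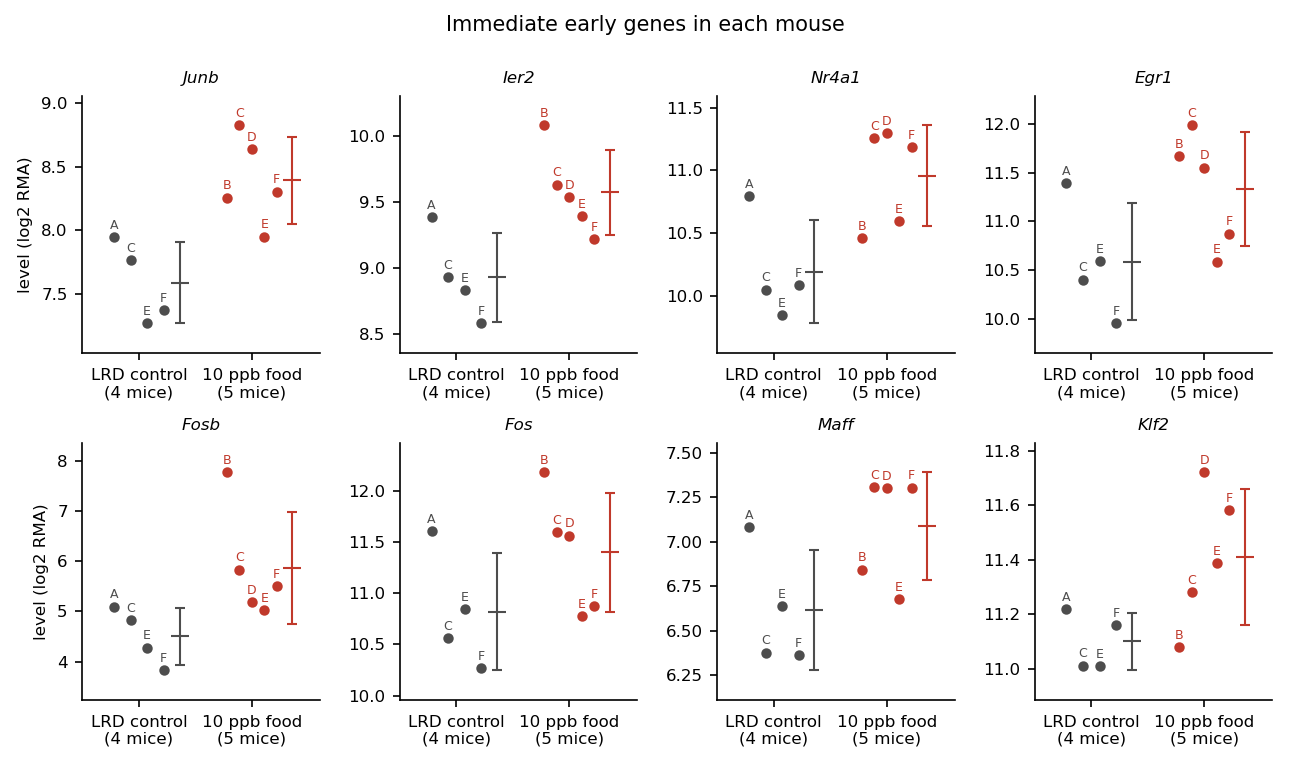
Log2 signal of immediate early genes (y axis) in each LRD mouse, As-exposed and control, with replicate letters and bars of mean ± SD. Junb alone of the genes drawn has no overlap, with exposed mice at 7.95 to 8.83 and controls at 7.27 to 7.94.

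Many immediate early genes are switched on through the cAMP response element, of which TGACG is the core. RefSeq promoters (build GRCm38.p6) matched 20 of the 25 members, and 13 of these (65.0%) held TGACG on either strand in the 250 bases before a start, against 19.8% of all 27025 genes with a promoter, counted the same way over every promoter of a gene. The full element TGACGTCA, which contains this core, stood in 3 of the 20 and in 1.77% of all. The promoters of Junb (chr8:84978749-84978998, minus strand), Fosb (chr7:19310046-19310295, minus strand) and Nr4a1 (chr15:101266596-101266845, plus strand) are shown because these 3 genes head the list and hold TGACG 1, 1 and 4 times. Capitals mark TGACG, or CGTCA where it lies on the other strand. A match is a description of the letters and not a binding site.
Junb: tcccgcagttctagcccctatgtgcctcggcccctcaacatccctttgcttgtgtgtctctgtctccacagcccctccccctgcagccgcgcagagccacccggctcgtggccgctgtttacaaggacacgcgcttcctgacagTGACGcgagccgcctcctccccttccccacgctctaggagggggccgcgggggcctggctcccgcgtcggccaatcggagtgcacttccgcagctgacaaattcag
Fosb: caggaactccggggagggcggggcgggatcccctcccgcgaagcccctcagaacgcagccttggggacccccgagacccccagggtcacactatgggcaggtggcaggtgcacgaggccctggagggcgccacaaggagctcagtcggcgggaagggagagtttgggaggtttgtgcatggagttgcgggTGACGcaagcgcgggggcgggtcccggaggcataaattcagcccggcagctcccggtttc
Nr4a1: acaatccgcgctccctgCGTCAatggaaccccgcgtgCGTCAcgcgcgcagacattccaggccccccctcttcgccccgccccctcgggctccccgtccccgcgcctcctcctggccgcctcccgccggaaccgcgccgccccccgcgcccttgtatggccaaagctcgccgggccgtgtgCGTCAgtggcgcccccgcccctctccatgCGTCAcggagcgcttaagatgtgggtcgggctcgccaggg

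Most clock genes were lower in mean. The circadian clock of each cell turns on the factors Arntl and Clock, which drive genes through the E-box, among them the Per and Cry repressors that shut Arntl and Clock off again. Dbp, Tef and Hlf carry the rhythm onward through D-boxes, where Nfil3 opposes them. Of 18 members measured, 14 were lower and 4 higher in mean, with a median difference of -0.17. At an unadjusted limma p under 0.05, 5 were lower, against 0.803% of all genes, and 1 was higher. The lower 5 were the 3 output factors Dbp, Tef and Hlf, the repressor Cry1 and the nuclear receptor Nr1d2, and the higher one was Arntl.

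Dbp was the member with the widest difference. It read 10.24, 8.87, 8.14, 9.56 and 9.02 in exposed replicates B to F and 10.52, 10.06, 10.31 and 9.96 in the controls. Exposed replicates C to F were all below every control, and exposed B was among the controls. The difference was -1.05 (interval -1.79 to -0.31; exact permutation p = 0.0476), and the second probe set gave -0.68. Tef followed the same order, with exposed C to F at 9.18 to 9.41, exposed B at 9.80 and controls at 9.69 to 9.97, a difference of -0.47 (-0.75 to -0.18). Nr1d2 again had exposed B, at 10.59, beside controls at 10.40 to 10.61, and the other exposed mice at 9.64 to 10.17. Hlf was lower by 0.63 and its second probe set by 0.64, and Cry1 by 0.40. On the other side, Arntl read 5.50 in exposed B and 6.45 to 6.66 in exposed C to F, against 5.17 to 5.98 in controls, a difference of 0.68 (0.15 to 1.20). Exposed B thus had a control-like level of Dbp, Tef, Nr1d2 and Arntl, in both directions.

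The other clock genes did not reach an unadjusted p of 0.05 by their brightest probe set. Per2 was lower by 0.76 (interval -1.57 to 0.04) and Per3 by 0.49 (-0.99 to 0.01), while a dimmer probe set of Per3, at a mean of 4.4, was lower by 0.54. Per1 differed by -0.09 (-0.42 to 0.23) and Nr1d1 by -0.03 (-0.76 to 0.70). Nfil3 was higher by 0.62 (-0.03 to 1.27), and Npas2, an Arntl partner, by 0.10, with its dimmer probe set at 0.50. Within batches, the list mean was lower in the exposed mouse by 0.32 in batch 1 and by 0.29 in batch 2, and 0.01 higher in batch 4, which holds exposed B. Without exposed B and control A the median difference was -0.23. The number of lower members at p 0.05 went from 5 to 8 without exposed B and to 3 without exposed D, exposed F or control A. It was 6 with array batch as a block (7 over 16 LRD mice). In AIN-76A mice fed 10 ppb As the list had a median difference of -0.12, Hlf was lower by 0.52 and Dbp by 0.18.

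**Figure D3:**
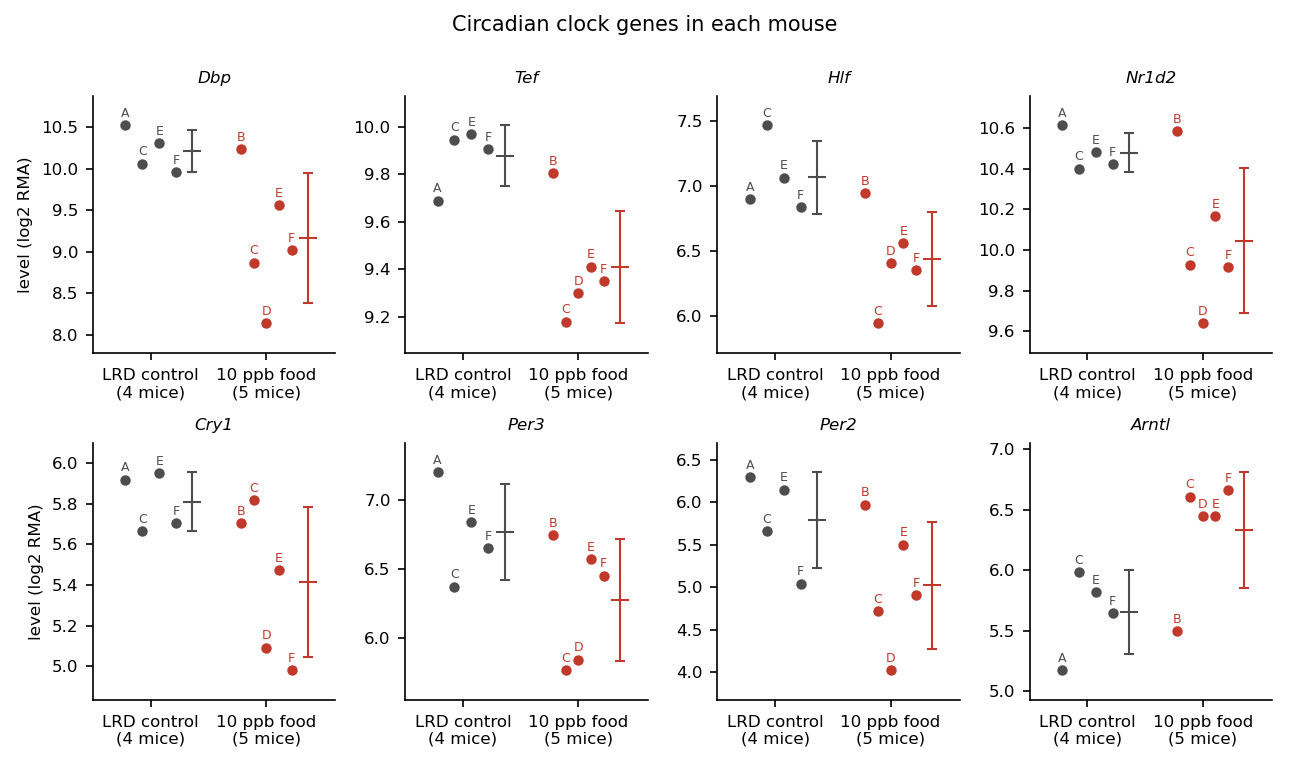
Log2 signal of clock genes (y axis) in each LRD mouse, As-exposed and control, with replicate letters and bars of mean ± SD. Exposed mice C to F lie below the controls for Dbp (8.14 to 9.56 against 9.96 to 10.52) and above them for Arntl (6.45 to 6.66 against 5.17 to 5.98), and exposed mouse B lies with the controls in both.

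The 250 bases before a start held the E-box CACGTG in 5 of the 16 clock genes with a RefSeq promoter (31.2%) and in 6.86% of all genes with one, and the D-box TTATGTAA in 1 of 16 (6.25%) and in 0.977% of all, on either strand. Among the 5 genes that were lower at p 0.05, Tef and Cry1 held the E-box, and Dbp, Hlf and Nr1d2 did not hold these letters in this window. Per3 held the D-box on 2 occasions. The promoters of these 3 genes are shown for their elements, in capitals: Tef at chr15:81802423-81802672 on the plus strand (1 of 2 promoters of the gene), Cry1 at chr10:85185055-85185304 and Per3 at chr4:151044666-151044915, both on the minus strand.
Tef: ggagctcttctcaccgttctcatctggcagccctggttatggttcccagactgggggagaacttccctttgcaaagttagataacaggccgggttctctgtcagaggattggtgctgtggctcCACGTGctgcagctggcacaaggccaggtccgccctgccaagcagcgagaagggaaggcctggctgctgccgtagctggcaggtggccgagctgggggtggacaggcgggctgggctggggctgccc
Cry1: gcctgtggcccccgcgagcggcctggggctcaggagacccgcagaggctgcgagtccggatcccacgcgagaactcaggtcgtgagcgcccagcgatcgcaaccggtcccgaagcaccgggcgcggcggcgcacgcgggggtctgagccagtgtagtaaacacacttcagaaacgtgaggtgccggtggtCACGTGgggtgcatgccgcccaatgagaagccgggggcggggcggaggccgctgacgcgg
Per3: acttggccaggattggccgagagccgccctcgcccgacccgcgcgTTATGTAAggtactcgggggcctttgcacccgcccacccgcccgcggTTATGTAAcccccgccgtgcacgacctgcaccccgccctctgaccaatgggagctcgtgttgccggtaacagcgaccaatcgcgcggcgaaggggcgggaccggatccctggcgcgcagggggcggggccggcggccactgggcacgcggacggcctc

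Cytokine and neutrophil genes were higher in mean, with wide spread among exposed mice. Il6, an inflammatory cytokine and the best-ranked of the probe sets that the rank product listed as higher, read 5.33, 6.60, 4.97, 3.51 and 5.07 in exposed replicates B to F and 4.62, 3.17, 3.68 and 3.26 in controls A, C, E and F. All exposed mice but E were above all controls. The Il6 difference was 1.42 (interval 0.31 to 2.52; exact permutation p = 0.0476), and it was 1.71, 1.98 and 1.91 within batches 1, 2 and 4. The probe sets of Il6 and of Cxcl2, described next, were dim, at means of 4.47 and 4.28. Medians of the arrays were 4.27 to 4.35, and both probe sets fall below the filter on a mean of at least 5. The neutrophil-attracting chemokine Cxcl2 read 6.41 and 5.85 in exposed B and C, 3.55 to 4.34 in the other exposed mice and 2.87 to 4.27 in controls, a difference of 1.15 (-0.08 to 2.37). Its relative Cxcl1 was higher by 0.84 (-0.07 to 1.75), with exposed C highest at 8.41. A second Cxcl1 probe set, at a mean of 6.115, differed by 0.02 (-0.36 to 0.40), and a dimmer one by 0.96 (-0.18 to 2.09). Of 46 cytokines and chemokines 31 were higher and 15 lower in mean, 2 were higher at p 0.05 (Il6 and Ccl8, a monocyte chemokine, by 0.47), none was lower, and the median difference was 0.09. With array batch as a block 5 were higher at p 0.05 (8 over 16 LRD mice). Of 31 of their receptors, 21 were higher and 10 lower in mean, with 3 higher at p 0.05: Csf3r, the receptor of the neutrophil growth factor, by 0.73, the chemokine receptor Ccr1 by 0.69, and Fpr2, a formyl peptide receptor of myeloid cells, by 0.35. Exposed and control mice did not overlap for Fpr2, at 8.14 to 8.61 against 7.82 to 8.09.

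In the IL-1 and TLR pathway, which the study examined in mice on AIN-76A, 27 of 32 members were higher and 5 lower in mean, with a median difference of 0.12. Il1b, which encodes the cytokine IL-1 beta, read 8.61, 9.78, 9.73, 7.97 and 8.33 in exposed replicates B to F and 7.98, 7.48, 8.63 and 7.79 in controls A, C, E and F. Exposed C and D were above all other mice, and the remaining exposed mice overlapped the controls. The difference was 0.91 (interval 0.07 to 1.75). Il1b, the receptor antagonist Il1rn (0.43) and the adaptor Myd88 (0.27) were the 3 members at an unadjusted p under 0.05. A second Il1rn probe set, equally bright at a mean of 6.12, differed by -0.13 (-0.37 to 0.12), and a dimmer one by 0.26. The decoy receptor Il1r2 was higher by 0.54 (-0.07 to 1.15), Tlr13 by 0.38 and the lipopolysaccharide coreceptor Cd14 by 0.35. The signalling receptor Il1r1 differed by 0.08 (-0.20 to 0.35), the ligase Traf6 by 0.05 (-0.17 to 0.27), Nfkbia, which encodes the NF-kappa-B inhibitor, by 0.01 (-0.37 to 0.39), and Tnf by 0.00 (-0.38 to 0.39). The signs of these last 4 turned under some alternatives. The number of IL-1 and TLR members at p 0.05 went from 3 to 5 without exposed E and to 1 without exposed D or control C. With array batch as a block it was 7 (8 over 16 LRD mice), all higher.

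**Figure D4:**
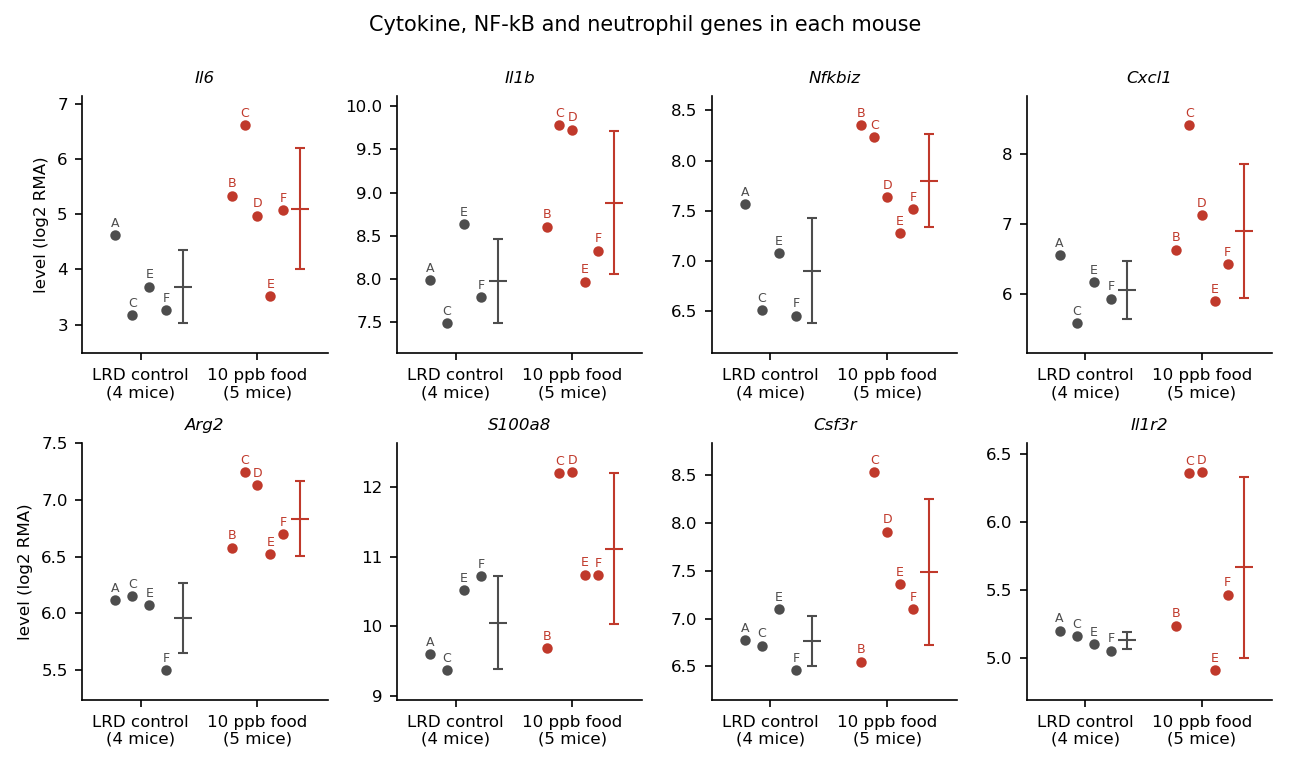
Log2 signal of Il6, Il1b, Nfkbiz, Cxcl1, Arg2, S100a8, Csf3r and Il1r2 (y axis) in each LRD mouse, As-exposed and control, with replicate letters and bars of mean ± SD. Exposed mice spread widely, from 3.51 to 6.60 for Il6 and from 9.68 to 12.22 for S100a8, and overlap the controls for each gene drawn but Arg2.

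Neutrophil markers were higher as a list, with 14 of 15 members higher in mean, a median difference of 0.42 and 4 members higher at p 0.05: S100a9, Lcn2, Mmp8 and Csf3r. S100a8 and S100a9 encode the calcium-binding proteins that fill the neutrophil cytosol. S100a8 read 12.21 and 12.22 in exposed C and D, 10.74 and 10.73 in E and F, and 9.68 in B, against 9.60, 9.37, 10.52 and 10.72 in controls A, C, E and F. Exposed C and D stood above all other mice, exposed E and F were at the upper edge of the controls, and exposed B lay near their lower edge. The list mean had the same order, 5.96, 7.43, 7.52, 6.88 and 6.86 in exposed B to F and 6.32 to 6.77 in controls. It was higher in the exposed mouse by 0.96 in batch 1 and 1.08 in batch 2 and lower by 0.59 in batch 4. Leaving out exposed B raised the number of members at p 0.05 from 4 to 10, and leaving out exposed D, control A or control C left 0. With array batch as a block it was 7 (5 over 16 LRD mice). The granule gene Ltf went the other way, at 8.08 ± 0.46 against 8.96 ± 1.65. The collagenase Mmp8 was higher by 0.67 and the iron-binding Lcn2 by 0.42. Platelet genes were higher in mean for 9 of 9 members, with a median difference of 0.23 and none at p 0.05, and the list mean was highest in exposed D at 8.25, control E at 8.14 and exposed F at 8.10, and lowest in exposed B at 7.27. The part of platelets and other blood cells in the neutrophil values was not tested.

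Other leukocytes showed smaller differences. Monocyte and interstitial macrophage markers were higher for 9 of 10 members, with a median of 0.19. C1qa, a complement subunit made by macrophages, did not overlap, at 8.98 ± 0.12 against 8.75 ± 0.12. Marco, a scavenger receptor of alveolar macrophages, was higher by 0.66 (interval 0.10 to 1.22). B cell markers were lower for 8 of 11 members, with Bank1 and Fcrla (by 0.52) at p 0.05. The B cell list mean was highest in control E, at 7.29, and lowest in exposed B, at 6.11. Its exposed-control difference was -0.045 in batch 1, 0.458 in batch 2 and -0.865 in batch 4. T cell markers were lower for 10 of 12 members, with none at p 0.05 and a median of -0.04. Of 15 acute phase genes, 6 were higher and 9 lower in mean, and 4 were higher at p 0.05: Serpina3n by 0.54, Lcn2 by 0.42, Lrg1 by 0.35 and Saa3 by 0.32. Interferon-stimulated genes had a median of 0.05 and 0 of 27 members at p 0.05, and MHC class II genes had a median of 0.00 and 0 of 9.

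Genes that handle or answer to As had medians near 0 over all 9 mice, and for some lists the direction turned without control A. Of 20 genes of As uptake, methylation and export, 7 were higher and 13 lower in mean, with a median of -0.03, and the 1 at p 0.05 was Gsto1, lower by 0.40 (interval -0.80 to -0.01), with exposed mice at 10.16 to 10.77 and controls at 10.53 to 11.43. Gsto1 kept its sign under every alternative, but missed p 0.05 with the replicate block, over 16 or 17 LRD mice, with median centring, with the filter on a mean of at least 5, and without exposed C, D or F or control A, C or E. Without control A, the mouse with liver genes, 12 members were higher and 8 lower, with a median of 0.04. Of 23 Nrf2 antioxidant genes, 10 were higher and 13 lower, with a median of -0.01. The 1 at p 0.05 was Gclm, a subunit of the enzyme that limits glutathione synthesis, which did not overlap between groups: it read 8.69, 8.92, 8.94, 9.25 and 8.89 in exposed B to F and 8.61 to 8.69 in controls. Exposed B was level with control C. The second probe set of Gclm, at a mean of 6.62, differed by -0.003 (-0.31 to 0.30) and overlapped. Metallothioneins and zinc transporters had a median of 0.00 over 12 genes, with Mt2 higher by 0.46 (0.00 to 0.92) and Mt1 by 0.37 (-0.07 to 0.82). Mt2 read 8.93 to 9.28 in exposed C, D and F and 8.30 and 8.35 in exposed E and B, beside 8.19 to 8.47 in controls. None of 15 heat shock genes and none of 17 genes of the unfolded protein and integrated stress responses reached p 0.05, with medians of -0.05 and 0.07. The heat shock genes were 6 higher and 9 lower in mean over all 9 mice, but 13 higher and 2 lower without control A, with a median of 0.09 and 1 at p 0.05, and without control A and exposed B the median was 0.12 with 2 at p 0.05. Of the 17 genes of the unfolded protein and integrated stress responses, 4 were higher at p 0.05 with array batch as a block (3 over 16 LRD mice). Of 18 p53 and DNA damage genes, Cdkn1a alone reached it, and the median was 0.06. Glucocorticoid targets were higher for 15 of 24 members with 3 at p 0.05, which were Mt2, Cdkn1a and Lcn2, all shared with other lists.

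Matrix and structural genes included a few that were higher. Elastin (Eln) read 8.39 in exposed B and 9.37 to 10.14 in the other exposed mice, against 8.05 to 9.21 in controls, a difference of 0.89 (interval 0.15 to 1.62), and its second probe set gave 0.68. The cross-linking enzyme Lox was higher by 0.46 and the collagen gene Col1a1 by 0.56 (-0.13 to 1.24). Of 30 matrix genes, 20 were higher and 10 lower in mean, with 3 higher at p 0.05 and a median of 0.04. Of the genes that the study took up in AIN-76A mice for adhesion, migration and channels, the metalloprotease Adam10 differed by -0.12 (-0.35 to 0.10), the sodium channel subunit Scn3b by -0.24 (-0.51 to 0.02), Pecam1 by -0.11 (-0.52 to 0.30), vinculin (Vcl) by 0.02 (-0.21 to 0.25) and Rac1 by 0.06 (-0.21 to 0.32). The rank product also placed Nfic high, on a probe set that differed by 1.01, but the other 4 probe sets of that gene differed by 0.09 to 0.32.

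Markers of fat, liver, skeletal muscle and heart muscle had the widest median differences of the marker lists. Fat genes had a median of -1.06, with 10 of 12 lower in mean and 3 lower at p 0.05. The adipokine Adipoq read 6.74, 10.04, 7.32, 6.47 and 4.43 in exposed B to F and 9.98, 9.68, 8.96 and 7.06 in controls, so exposed C was as high as the highest controls and control F as low as exposed B and D. Pck1, which fat and liver use to make glycerol and glucose, was lower by 1.86, with control A at 7.58 and control C at 5.93. Ucp1 was lower by 1.79 and Cidea by 1.53, with Ucp1 at 8.26 in control C, 5.57 in control A and 3.28 to 3.84 in the other 7 mice. Without exposed F, control A or control C, 0 fat genes were lower at p 0.05. The fat list mean was 0.15 higher in the exposed mouse of batch 1, 0.43 lower in batch 2 and 1.09 lower in batch 4. Heart muscle genes were lower for 11 of 11, with a median of -0.69, which was -0.08 without control A, and the atrial peptide Nppa read 13.48 in control A, 11.23 in exposed B and 4.69 to 8.59 elsewhere. Liver genes were lower for 7 of 7, with a median of -1.12, which was 0.26 without control A. Skeletal muscle genes were higher for 13 of 13, with a median of 1.30, which was 0.02 without exposed B. Among genes of the lung's own airways, secretory genes were lower for 9 of 12, with a median of -0.21, among them Reg3g by 1.57, Bpifa1 by 1.40 and Scgb3a1 by 0.75, none at p 0.05, and exposed C was the lowest mouse. The epithelial gene Tmem45b was lower by 1.36, and the cartilage gene Comp by 0.74 with control C highest at 5.11.

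The food effect was then set against the food effect in AIN-76A mice, which have controls of their own, by an interaction over 19 mice. No probe set passed this test either: 0 of 45037 (0.0%) had a limma adjusted p under 0.05, and 1289 (2.86%) had an unadjusted p under 0.05, of which 794 had the higher difference in LRD mice and 495 the lower. With each array centred on its median these were 1092 and 350. Of 15 leading genes that were higher in LRD mice, 4 were higher and 11 lower in AIN-76A mice given the same food dose. Of the 15 that were lower, 7 were higher and 8 lower or level. Since the genes were chosen on the LRD difference, which is part of the interaction, the LRD side and the interaction of each are a description.

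**Figure D5:**
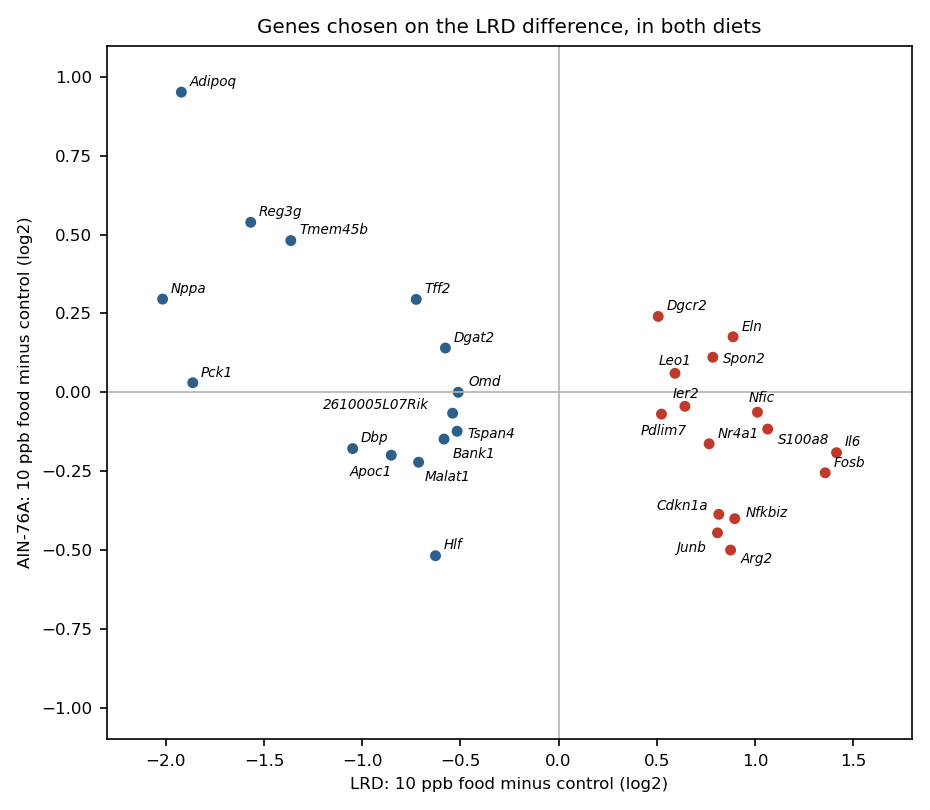
Difference between mice given 10 ppb As in food and their controls in LRD mice (x axis, log2) and in AIN-76A mice (y axis, log2) for the 30 leading genes chosen on the LRD difference; one point per gene. Genes higher in LRD mice (red) lie between -0.50 and 0.24 in AIN-76A mice, and Adipoq lies at -1.92 and 0.95.

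Arg2 averaged 6.67 ± 0.08 (n = 5) in AIN-76A food mice and 7.17 ± 0.76 (n = 5) in their controls, a difference of -0.50, so the effect in LRD mice was higher by 1.38 (SE 0.37). Junb differed by -0.45 and Cdkn1a by -0.39 in AIN-76A mice, with interactions of 1.26 and 1.20. Il1b differed by -0.43, Il1r2 by -0.78 and Clec4e, a lectin of activated myeloid cells, by -0.81, with interactions of 1.34, 1.32 and 1.58, and Clec4e itself was higher by 0.77 (interval -0.30 to 1.84) in LRD mice. Fpr2 had the smallest unadjusted interaction p of all probe sets, with a difference of 0.35 on LRD and -0.43 on AIN-76A, an interaction of 0.77 (SE 0.16, limma adjusted p = 1). The immunoglobulin kappa gene Igk was lower by 0.59 on LRD and higher by 0.79 on AIN-76A, an interaction of -1.38. The other Igk probe sets differed by -0.15 to 0.05 on LRD, and the next brightest of them by 0.04. As lists, immediate early genes had a median of 0.36 on LRD and -0.14 on AIN-76A, neutrophil markers 0.42 and -0.28, and airway secretory genes -0.21 and 0.31. For these lists the median in 1 diet lay on the other side of 0 from that in the other. Some other lists had medians on the same side in both diets. On LRD and AIN-76A these were -0.17 and -0.12 for circadian clock genes, -0.69 and -0.11 for heart muscle genes, and 0.10 and 0.03 for alveolar type II markers. No test of a list was made. Control levels differed as well: Il1b averaged 7.97 ± 0.49 in LRD and 9.78 ± 0.95 in AIN-76A controls, and Arg2 5.96 ± 0.31 and 7.17 ± 0.76.

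Clec4e and Igk, given above, were among the genes that led the food comparison in AIN-76A mice. The others of these genes differed by -0.14 to 0.20 in LRD mice. All were chosen on the AIN-76A difference, so the AIN-76A side and the interaction of each are a description. The transcription factor Zbtb16, a glucocorticoid-responsive gene, averaged 6.45 ± 0.51 in AIN-76A food mice and 8.00 ± 0.45 in their controls, a difference of -1.55, and differed by 0.20 (interval -0.42 to 0.82) in LRD mice, an interaction of 1.75 (SE 0.41, limma adjusted p = 1). Fam107a was lower by 0.72 on AIN-76A and differed by 0.05 on LRD, the immunoglobulin alpha gene Igha by 0.65 and 0.01, and Dach1 by 0.71 and -0.03. The cyclin Ccnd2, the kinase subunit Csnk2a1 and the formin Diaph2 differed by -0.01, 0.02 and -0.14 on LRD.

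The As-in-water groups on LRD chow share the food group's 4 controls, so their values are set side by side without a test. Replicate C of the 10 ppb water group stood apart from the other LRD arrays: its 3′ probe sets of Gapdh and Actb exceeded the 5′ ones by 3.15 and 3.15, against 0.07 to 0.89 and 0.66 to 1.36 in the other 16 mice. The 10 ppb water values are therefore given for all 5 mice and for the 4 without it, a choice made after seeing the data. Arg2 was higher than control by 0.88 with food, 0.60 with 10 ppb in water (0.76 without replicate C) and 0.68 with 100 ppb in water. Junb was higher by 0.81, 0.51 (0.41) and 0.93, and Cdkn1a by 0.82, 0.35 (0.34) and 0.90. For Il6 the values were 1.42, 0.07 (0.06) and 0.48, for Fosb 1.36, -0.01 (0.04) and 0.40, and for Nr4a1 0.77, -0.02 (0.10) and 0.37. Among clock genes, Dbp differed by -1.05, -0.34 (-0.27) and -1.55 and Arntl by 0.68, 0.43 (0.35) and 1.07. Adipoq differed by -1.92, -1.43 (-1.31) and -2.25 and Nppa by -2.02, -2.50 (-2.16) and -3.19, genes for which control A was among the highest mice.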

How the data were processed

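Lung RNA of 5 As-exposed and 4 control mice on LRD-5001 chow was compared, and 10 AIN-76A mice entered the interaction. The authors made log2 signals from the raw arrays by robust multiarray averaging (RMA) and deposited these log2 values; which arrays were normalized together is not given in the sources used here. The study's text describes AIN-76A mice only. Array intensity was not reprocessed, and the number of mice limits the precision.

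Groups came from the labels. Of 45101 rows, 64 control probe sets were left out. Of 45037 tested, 34945 carry 1 gene symbol in the platform annotation, 932 several and 9160 none; 34741 matched RefSeq by Entrez number. A gene was given by its probe set of highest mean over the 9 mice, unless a leading probe set is described. limma 3.58.1 in R 4.3.3 compared the 9 mice, with Benjamini-Hochberg adjustment at 0.05, and 19 mice for the interaction. Intervals are 95% intervals of that fit. Replicates are separate mice. Exact permutation tests (scipy 1.17.1, two-sided) cannot go below 0.0159. A rank product program was made for this comparison (100 random orderings; Python 3.11.15, pandas 2.3.3, numpy 2.4.6), and both methods were tested on simulated data. Figures used matplotlib 3.10.9.

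Genes were named by rule: the 10 of smallest p in each direction with a mean of at least 6 and a difference of at least 0.5, the 5 best by the rank product, up to 4 of each list with the widest differences, and genes of the study and of the AIN-76A food comparison. Others (among them Maff, Klf2, Mmp8, Lrg1, Saa3, Gclm and Comp) were chosen after their values were seen. The 27 pathway and 28 marker lists, and the members, were chosen with earlier results of these data known. Sequences are RefSeq's, build GRCm38.p6. Alternatives were a filter on dim probe sets, more LRD mice in the fit, array batch and replicate letter as blocks, array weights, other normalizations, and leaving out mice. Batches are those in the raw array file names.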

Additional observations from a re-analysis of the deposited data

Results flagged for a closer look

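Of 314 groups of values tested, 20 held a mouse that lay far from the rest of its group, and chance alone flags about 1 group in 20. Control replicate A accounted for 6 of these, on the means of arsenic handling genes (7.48 against 6.97 to 7.04 in the other controls), acute phase genes (7.73 against 6.55 to 6.67), complement genes (8.01 against 7.84 to 7.85), integrins (8.5 against 8.70 to 8.74) and endothelial markers (10.23 against 10.67 to 10.70), and on Apoc1 (10.14 against 7.98 to 8.34). The same mouse had liver and heart genes far above the other controls, and the part of these in the values was not tested.

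Exposed replicate B accounted for 7: the mean of skeletal muscle genes (10.36 against 3.82 to 4.64 in the other exposed mice), Tnnc2 (12.3 against 3.18 to 5.53), Acta1 (12.0 against 3.33 to 5.10), Tspan4 (10.09 against 9.12 to 9.35), Arntl (5.50 against 6.44 to 6.66), Zbtb16 (7.86 against 6.74 to 6.97) and Fam107a (8.57 against 7.90 to 8.08). For Tspan4 and Arntl it stood where the control mice stood.

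Single values of other mice were Arg2 in control F (5.50 against 6.07 to 6.15), Myd88 in control F (8.80 against 8.55 to 8.57), Bank1 (7.62 against 6.77 to 6.87), Diaph2 (8.20 against 7.98 to 8.01) and Igha (9.76 against 9.41 to 9.47) in control E, MHC class I genes in exposed F (10.48 against 9.96 to 10.02) and angiogenesis genes in exposed C (8.79 against 8.60 to 8.64). Myd88 in control F was nearest to the exposed mice, and Arg2 in control F farthest from them.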

How the results depend on the processing

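The 0 calls of limma stayed 0 under every alternative, while the rank product listed 28 probe sets as higher and 29 as lower. The 603 probe sets higher at an unadjusted p under 0.05 became 243 with a mean of at least 5 and 1298 with array batch as a block (1263 over 16 LRD mice), 1288 with array weights and 1159 without exposed D and control F. The 404 lower ones became 92, 786 (796), 1012 and 1084. Leaving out 1 mouse gave 421 (without control A) to 1517 (without control F) higher, with 1142 without exposed B, and 298 (without exposed E) to 1278 (without control F) lower. The interaction's 794 higher and 495 lower became 445 and 52 with the filter, 1301 and 931 with the replicate block, and 1248 higher with array batch; leaving out 1 LRD mouse gave 661 to 1258 (without exposed B) higher and 421 to 846 (without control F) lower. Mice with the same letter (C, E and F) had deviation correlations of 0.06, -0.02 and 0.28, so letters did not pair the mice. The 4 exposed-control pairs that share a batch had 0.22, 0.10, 0.28 and 0.51. Pairs that share neither ranged from -0.54 (exposed B with control F) to 0.32 (exposed B with control A). With the replicate block the LRD counts were 760 and 419. Of 102 genes, 87 kept their sign under all alternatives and 15 did not, all with differences of at most 0.20. With the replicate block, reversed differences were Fam107a -0.130, Nfkbia -0.129, Rac1 -0.037, Tnf -0.134, Traf6 -0.012, Vcl -0.014 and Zbtb16 -0.249. With array batch as a block they were Csnk2a1 -0.005, Dach1 0.192 (0.204 over 16 mice), Igha -0.127, Rac1 -0.013 and Vcl -0.063 (-0.082). With array weights they were Ccnd2 0.010, Fam107a -0.025, Il1r1 -0.017, Nfkbia -0.009, Nr1d1 0.095 and Traf6 -0.001, and with quantile normalization Tnf -0.007. Without control A and exposed B they were Fam107a -0.120, Igha -0.030, Npas2 -0.033, Rac1 -0.016, Tnf -0.118, Traf6 -0.022, Vcl -0.016 and Zbtb16 -0.198, and without exposed D and control F Ccnd2 0.011, Nfkbia -0.032 and Nr1d1 0.166. Leaving out 1 mouse gave Ccnd2 -0.069 to 0.030, Csnk2a1 -0.051 to 0.070, Dach1 -0.218 to 0.121, Fam107a -0.073 to 0.101, Igha -0.118 to 0.102, Nfkbia -0.109 to 0.097, Npas2 -0.007 to 0.221, Nr1d1 -0.241 to 0.239, Pecam1 -0.276 to 0.035, Rac1 -0.044 to 0.110, Tnf -0.131 to 0.130, Traf6 -0.017 to 0.104, Vcl -0.036 to 0.068 and Zbtb16 -0.007 to 0.455. With the replicate block the median of arsenic handling genes was 0.06, with 13 higher and 7 lower. The cause of these shifts was not tested. The alternatives that leave out 2 mice were chosen after seeing the data. The number of mice limits what can be read from single genes.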

Other observations

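Genes of oxidative phosphorylation were lower in mean for 18 of 20 members, with a median difference of -0.10 and none at an unadjusted limma p under 0.05. The list mean was 11.05 in control A and 10.59 to 10.86 in the other 8 mice. Alveolar type II markers were higher in mean for 12 of 13 members, with a median of 0.10 and none at that threshold. Over 45037 probe sets the LRD and AIN-76A food differences, which share no mice, correlated at r = -0.07, and at -0.14 over 15503 probe sets with a mean of at least 6. These points share arrays and are not independent, so no p is given.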
